A study of Mus musculus with 31 samples.

Results

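The astrocyte genes described here are 39 genes, a fixed list of names for the transporters, channels, junction proteins, transcription factors, enzymes, secreted proteins and receptors by which astrocytes are recognised in brain tissue. They were read by symbol from a table of 52636 gene identifiers measured in the caudate putamen (CPu), the dorsal part of the striatum, and all 39 were found and tested in every comparison. The table covers 31 female mice of 8 to 11 weeks in 4 groups. Of the 15 vehicle administered mice, 8 were wild type (WT) and 7 were Brd1+/- mice. Of the 16 mice administered imipramine (IMN) at 10 mg/kg, a tricyclic antidepressant, 8 were WT and 8 were Brd1+/-. The Brd1+/- mice carry a germline deletion of part of 1 copy of Brd1, a chromatin reader gene, on the C57BL/6NTac background, so that the loss is in every cell type and not in astrocytes alone, and the WT mice were litter-matched. All mice, vehicle administered mice included, had been injected subcutaneously and taken through behavioral tests before the brain was collected, and a punch of the right CPu gave 1 library per mouse. The values are TPM, the abundance of a gene per length of transcript scaled to a fixed sum per mouse, and they carry no read counts, so that the statements of precision rest on the spread between mice.

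Astrocytes clear glutamate and GABA from the synaptic space, turn glutamate into glutamine for neurons, buffer potassium, bicarbonate and water, and are joined to each other by gap junctions. They also store glycogen, activate thyroid hormone and secrete lipoproteins. Gfap, an intermediate filament gene and the classical astrocyte marker, is known to be high in astrocytes of white matter and low in those of the striatum, whereas the glutamate transporters Slc1a2 and Slc1a3 are abundant in both. In a punch of whole tissue, a different number of astrocytes and a different amount of RNA per astrocyte cannot be told apart.

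Brd1 itself followed the labels, with no overlap of the genotypes within a treatment, at 22.5 ± 2.97 TPM (mean ± SD, n = 8) in WT and 13.4 ± 2.02 TPM (n = 7) in Brd1+/- mice under vehicle, and 19.9 ± 2.67 (n = 8) and 12.8 ± 1.04 (n = 8) in the respective IMN groups. Striatal neuron markers were detected in all libraries, but part of the vehicle administered WT mice stood apart. The summed TPM of 10 striatal neuron markers ran from 276 to 10474 in that group and from 5050 to 9819 in the other groups. The summed TPM of 10 cortical neuron markers exceeded it in 4 libraries, all of them of vehicle administered WT mice (mice 1, 2, 4 and 5). Mouse 2 of these had only 1.37 TPM of Drd1, 0.748 TPM of Drd2 and 1.02 TPM of Adora2a, all striatal neuron markers. The lowest values in the other groups were 104, 137 and 112 TPM. On the log2 scale, the mean of the cortical markers was 5.83 to 7.01 in vehicle administered WT mice 1, 2, 3, 4, 5 and 7, 2.45 and 2.55 in mice 6 and 8, and at most 5.92 in the other groups. The value of 5.92 was that of an IMN administered WT mouse, which thus lay above the lowest of these vehicle administered WT mice (5.83). In vehicle administered WT mouse 7, Y-linked transcripts summed to 26.8 TPM, against at most 0.188 TPM in any other mouse, although it is labelled as a female. Xist, which is transcribed from the inactive X chromosome of females, was also present there, at 79.2 TPM, the lowest of its group, whose highest mouse had 136 TPM. No gene of the oligodendrocyte, microglia, cortical or striatal neuron lists was at 0 in every mouse of a group. The main counts below that rest on vehicle administered WT mice are also given without these 4 libraries, which leaves mice 3, 6, 7 and 8 in the group.

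All 39 genes were measured well above the filter, and their sum made up 0.356% to 0.639% of all TPM. Glul, which encodes glutamine synthetase, was the most abundant at a mean of 707 TPM over 31 mice, followed by the lipoprotein genes Apoe (533 TPM) and Clu (519 TPM), the zinc-binding metallothionein Mt3 (407 TPM), the glycolytic enzyme gene Aldoc (384 TPM), Ndrg2 (365 TPM) and Slc1a2 (319 TPM). The spread between mice was wide enough (SD 153 TPM for Glul, 120 for Apoe, 139 for Clu) that the order among these neighbors does not stand out from it. At the low end were Bmpr1b (5.22 TPM), the hyaluronan-binding protein gene Itih3 (5.09 TPM) and Agt, the angiotensinogen gene (2.26 TPM). The steadiest member was Slc1a3, with a coefficient of variation of 8.47% over 31 mice, and the most variable were Slc25a18 (143%) and Gfap (101%). Of the 39 genes, 20 had their highest value of the 31 mice in vehicle administered WT mouse 2 and another 10 in vehicle administered WT mouse 1, both among the 4 libraries with more cortical than striatal marker signal. Their lowest values were spread over more mice, most often Brd1+/- IMN mouse 6 (10 genes) and WT IMN mouse 6 (7 genes). The shares of all genes with their highest or lowest value in these mice were not computed.

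**Figure D1:**
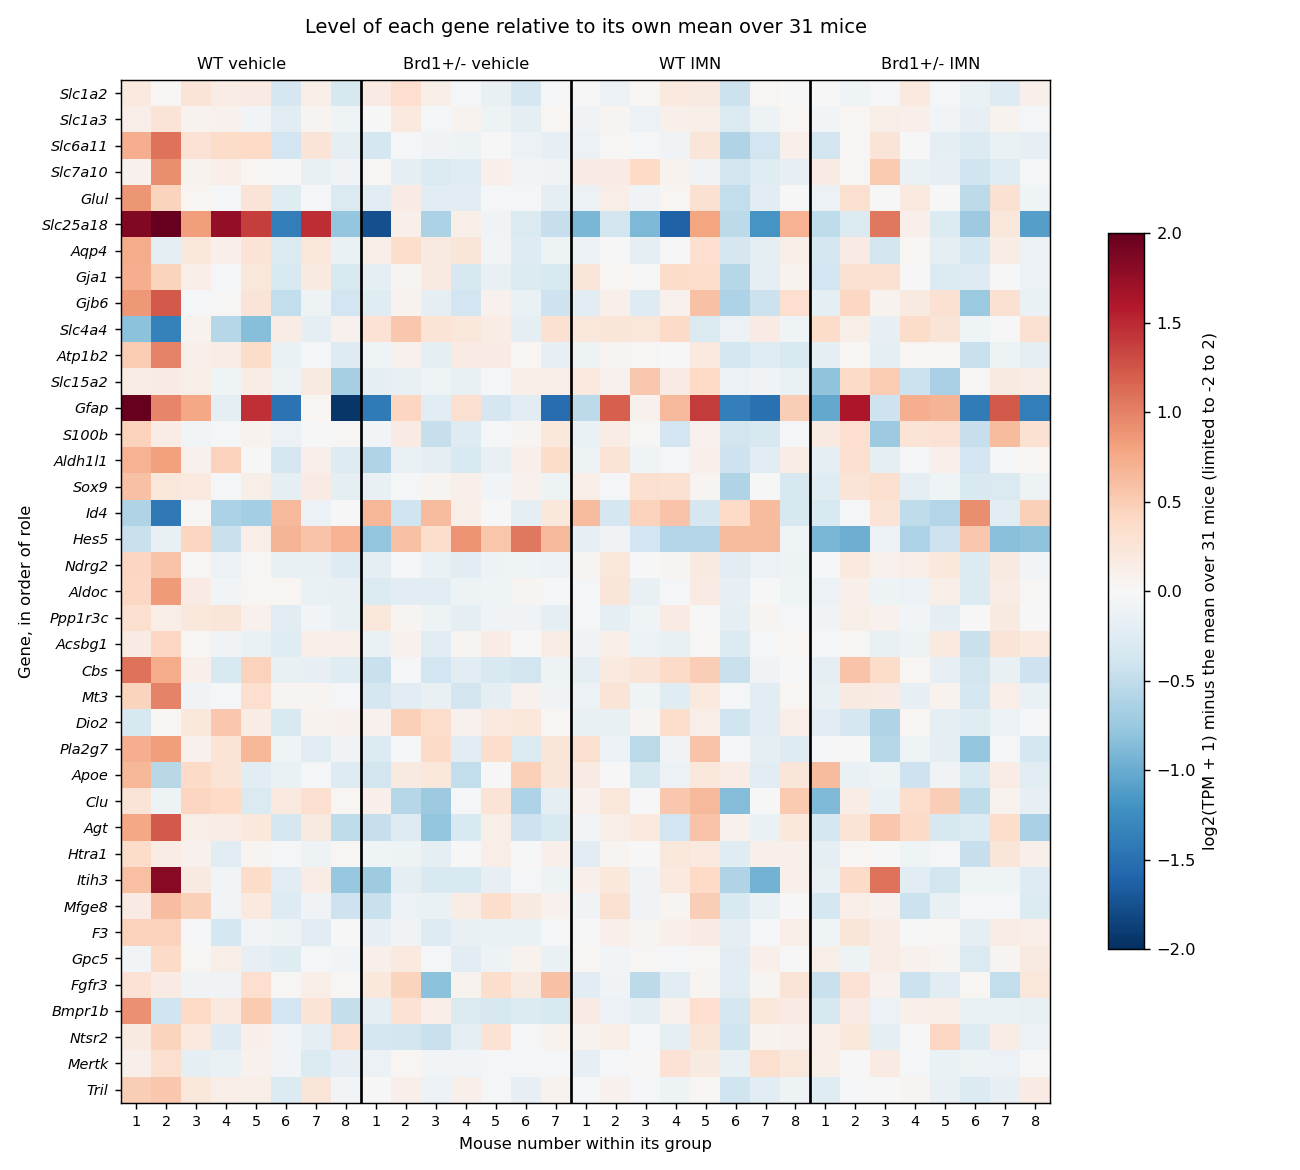
Level of the 39 astrocyte genes (rows, in order of role) in 31 mice (columns, by group and mouse number), as log2(TPM + 1) minus the gene's mean over all mice, with the color limited to -2 to 2. Vehicle administered WT mice 2 and 1 hold the highest value of 20 and 10 genes, Slc4a4 and Id4 are low in these 2 mice, and Gfap and Slc25a18 vary most.

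The 6 genes most used to define astrocytes were first compared. Slc1a2, the main glutamate transporter, was at 250 to 380 TPM in vehicle administered WT mice (median 348) and at 250 to 400 TPM in vehicle administered Brd1+/- mice (median 310), with a log2 difference of -0.02 (95% confidence interval -0.27 to 0.22). Slc1a3, the second glial glutamate transporter, was at 116 to 161 TPM (median 141) and 118 to 153 TPM (median 134), with a difference of -0.04 (-0.20 to 0.13). The IMN groups together ran from 234 to 361 TPM for Slc1a2 and from 110 to 147 TPM for Slc1a3, with both lowest values in IMN administered WT mouse 6. On the TPM scale the intervals of Slc1a3 reached at most 0.22 in either direction in the 4 comparisons of 2 groups. After median-of-ratios scaling its genotype difference under vehicle was 0.15 and after quantile normalization 0.18, neither past the nominal threshold. The water channel gene Aqp4 differed between the genotypes by -0.05 (-0.35 to 0.25) under vehicle and by -0.08 (-0.30 to 0.14) under IMN. The gap junction gene Gja1 (connexin 43) was at 51.2 to 105 TPM in vehicle administered WT mice and at 50.7 to 72.2 TPM in vehicle administered Brd1+/- mice, a difference of -0.27 (-0.57 to 0.02). Aldh1l1, a folate enzyme used as a pan-astrocyte marker, differed by -0.33 (-0.71 to 0.06) in the same comparison. None of these 6 genes reached the nominal threshold, a limma p under 0.01, in any comparison.

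Gfap (ENSMUSG00000020932, GRCm38 chromosome 11, 102887336 to 102900912, reverse strand) had the widest spread of the 6. In vehicle administered WT mice it ran from 4.71 TPM (mouse 8) over a median of 29.0 to 160 TPM (mouse 1), and in vehicle administered Brd1+/- mice from 6.65 over 17.7 to 28.6 TPM. IMN administered WT mice ran from 6.77 over 25.9 to 56.8 TPM, and IMN administered Brd1+/- mice from 7.27 over 24.7 to 66.4 TPM. The highest mouse of all was 34.1 times the lowest, both of them vehicle administered WT mice, and all 4 groups overlapped. The genotype difference of -0.74 under vehicle had an SE of 0.59 and an interval of -1.99 to 0.52.

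**Figure D2:**
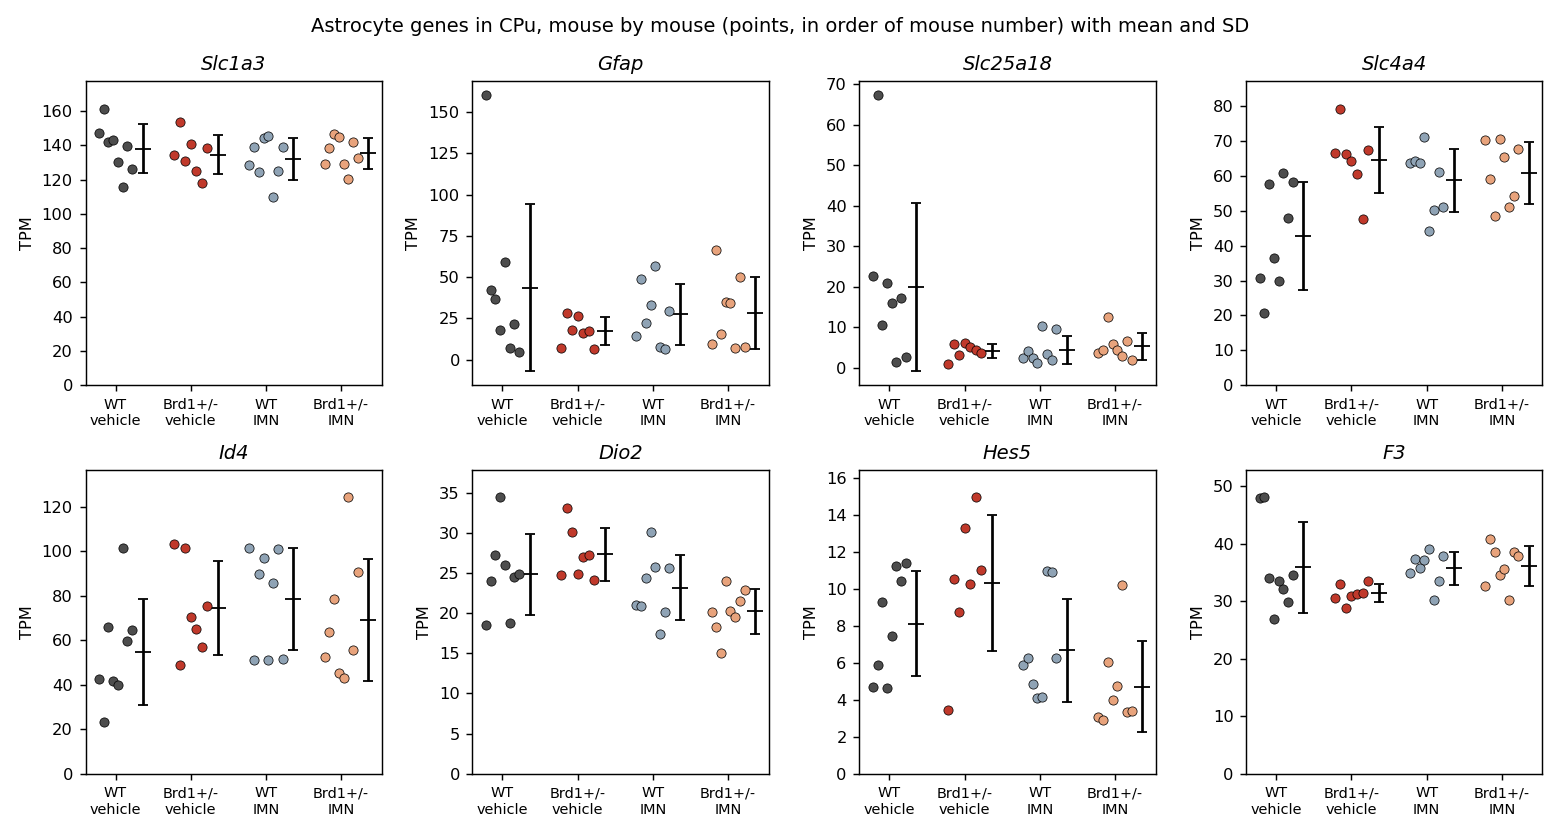
TPM of 8 astrocyte genes in each mouse, in 4 groups along the x axis, points in order of mouse number, with the mean and SD at the right of each group. Slc1a3 is nearly level at 110 to 161 TPM, the highest Slc25a18 (67.4 TPM) and Gfap (160 TPM) are in vehicle administered WT mice, and Dio2 in Brd1+/- mice is lower in all 8 IMN than in all 7 vehicle administered mice.

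The question of the first comparison was how the Brd1+/- genotype bears on the astrocyte genes of unmedicated mice. Between vehicle administered Brd1+/- and WT mice, 1 of the 39 genes passed the nominal threshold, Slc4a4, which was higher in Brd1+/- mice, and none was lower. Of all 23200 genes tested, 13.6% passed it (1.47% higher and 12.1% lower), and no gene, member or not, was below a false discovery rate (FDR) of 5%. No member's groups were free of overlap, which 0.272% of all genes were in the lower and 0.0172% in the higher direction. Slc4a4 encodes the electrogenic sodium bicarbonate cotransporter of astrocytes (ENSMUSG00000060961, chromosome 5, 88886818 to 89239653, forward strand). In vehicle administered WT mice it was at 20.7, 42.2 and 60.8 TPM (lowest, median and highest) and in vehicle administered Brd1+/- mice at 47.7, 66.2 and 79.3 TPM. Of the 7 Brd1+/- mice, 5 lay above all 8 WT mice, and the groups overlapped through WT mice 3, 6, 7 and 8 and Brd1+/- mice 5 and 6. The log2 difference was 0.66 ± 0.21 (SE; limma, adjusted p = 0.0621; exact permutation test, two-sided, p = 0.0121).

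The lowest Slc4a4 values of the WT group, at 20.7 to 36.4 TPM, were those of mice 1, 2, 4 and 5, the libraries with more cortical than striatal marker signal. WT mice 3 and 7, whose cortical marker means were also high (5.83 and 6.45), were at 57.6 and 47.9 TPM, and WT mice 6 and 8, whose means were low (2.45 and 2.55), at 60.8 and 58.2 TPM. By summed TPM of the cortical markers mouse 6 was the lowest of the group (2442 TPM) and mouse 8 (3452 TPM) was close to mice 3 and 7 (3550 and 3579 TPM). Without these 4 libraries the difference of Slc4a4 was 0.19 ± 0.12 (limma, adjusted p = 0.671). It was 0.33 ± 0.19 in a fit that also held the mean of the cortical markers (adjusted p = 0.667), and 0.22 ± 0.13 in one with that of the striatal markers (adjusted p = 0.556). The count of members past the nominal threshold was 0 in these 3 fits, where 0.934%, 2.01% and 1.48% of all genes passed it. Leaving out 1 mouse gave a count of 0 without WT mice 1 or 4 or Brd1+/- mice 1, 2, 3 or 7 (8.93% to 11.6% of all genes), of 2 without WT mouse 3 or Brd1+/- mice 5 or 6 (9.93% to 12.4%), and of 4 without WT mice 6 or 8, where Slc25a18, Slc6a11 and Agt joined Slc4a4 and 4 and 5 members were below an FDR of 5%. Over all genes the nominal share in these last 2 fits was 19.9% and 22.4%, and 19.9% and 23.8% were below an FDR of 5%. Without WT mouse 5 the 1 gene past the threshold was Clu in place of Slc4a4 (8.89% of all genes).

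By role, the vehicle comparison of genotypes ran as follows. All 6 genes of transmitter uptake and recycling had log2 differences below 0, with a median of -0.24, and none passed the nominal threshold. Slc25a18, a mitochondrial glutamate carrier gene, had the widest difference of all members at -1.50 ± 0.56 (adjusted p = 0.0930), and Slc6a11, the GABA transporter GAT-3, was at -0.43 ± 0.17 (adjusted p = 0.102). Of the 6 ion, water and junction genes 5 were below 0 (median -0.13), of the 7 identity genes 5 (median -0.12), of the 7 metabolic genes 6 (median -0.26), of the 8 secreted and surface genes 7 (median -0.12) and of the 5 receptor genes 4 (median -0.18). The median over the 39 members was -0.18, with 33 below 0, and that over all genes tested -0.13, with 72.8% below 0. Median-of-ratios scaling between mice moved the median of all genes to -0.00077 and that of the members with it, to 0.01 with 19 below 0. Relative to all genes the members' median was -0.05 on the TPM scale and 0.01 after that scaling. Without the 4 libraries 18 members were below 0, with a median of 0.0048 against -0.08 for all genes. Markers of other cell types lay to one side in the same comparison, with medians over 10 genes of -2.03 for cortical neurons (10 below 0), 1.63 for striatal neurons (10 above 0), -0.35 for oligodendrocytes (10 below 0), 0.17 for microglia (10 above 0) and 0.09 for endothelium (9 above 0). No oligodendrocyte, microglia or endothelium marker was at an unadjusted p under 0.05, and the part of the latter 2 in the members' values was not tested.

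At an unadjusted p under 0.05, 7 members were listed, against 30.9% of all genes, and without the 4 libraries 1 was, against 6.86%. With the cortical or striatal marker mean in the fit it was also 1, against 8.44% and 9.28%. Beside Slc4a4, Slc25a18 and Slc6a11 these were Mt3, the secreted chaperone gene Clu (-0.41 ± 0.16), Agt (-0.57 ± 0.22) and Cbs, which makes cystathionine from homocysteine (-0.45 ± 0.19). Mt3, a metallothionein of the brain, was at 381, 414 and 800 TPM in vehicle administered WT mice and at 309, 351 and 425 TPM in vehicle administered Brd1+/- mice, and 5 of the 7 Brd1+/- mice lay below all 8 WT mice. Its difference was -0.39 ± 0.14 (limma, adjusted p = 0.0843; exact permutation test, p = 0.00793). It was the only member under 0.01 in the exact permutation test of this comparison.

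Slc25a18 (ENSMUSG00000004902, chromosome 6, 120773578 to 120794336, forward strand) had the widest range, as a ratio, of the members within the vehicle administered WT group. Vehicle administered WT mice 1, 2, 3, 4, 5 and 7 had 22.7, 67.4, 10.6, 21.1, 16.1 and 17.2 TPM, and mice 6 and 8 had 1.51 and 2.84 TPM. The other 23 mice ran from 0.936 to 12.6 TPM, and 5 of the 8 mice were higher than all of them. Exons of Slc25a18 overlap Atp6v1e1 on the opposite strand, a proton pump subunit gene at a mean of 239 TPM, and whether reads were counted by strand was not stated. Under vehicle, Atp6v1e1 had 287 ± 40.3 TPM (n = 8) in WT and 225 ± 9.79 TPM (n = 7) in Brd1+/- mice, and its part in the values of Slc25a18 was not tested. Among the other members, exons of Glul overlap Mir8114 on the same strand (mean 386 TPM). Those of Slc7a10 overlap Lrp3 on the opposite strand (mean 38.2 TPM), and the part of these genes was not tested either.

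The second comparison addressed the effect of IMN in WT mice, and it shares the vehicle administered WT mice with the first. No member passed the nominal threshold, against 6.95% of the 23579 genes tested (1.35% higher and 5.6% lower), and none was below an FDR of 5%, against 0.00424% of all genes. By limma 5 members were at an unadjusted p under 0.05 (23.1% of all genes), without the 4 libraries 2 were (4.89%), and by the exact permutation test also 5, with 0 under 0.01. Slc25a18 differed by -1.57 ± 0.57 on the log2 scale (19.9 ± 20.7 TPM, n = 8, under vehicle and 4.44 ± 3.51 TPM, n = 8, under IMN; adjusted p = 0.149). Slc4a4 differed by 0.52 ± 0.20 (42.7 ± 15.4 and 58.7 ± 9.05 TPM; adjusted p = 0.156). Tril, a co-receptor of Toll-like receptor 4 signaling, differed by -0.28 ± 0.11, Slc6a11 by -0.42 ± 0.18 and Id4, an inhibitor of helix-loop-helix factors, by 0.56 ± 0.25. Of the 39 members 34 were below 0, against 67.5% of all genes, and the groups overlapped for each of them, as was not so for 0.115% (lower) and 0.0297% (higher) of all genes. Below 0 were 19 members after median-of-ratios scaling, which moved the median of all genes to 0.0014, and 14 without the 4 libraries. In neither case did a member pass the nominal threshold, against 6.02% and 1.08% of all genes. Leaving out vehicle administered WT mouse 6 gave a count of 5 (13.6% of all genes), mouse 8 a count of 2 (15.3%), and vehicle administered WT mouse 3 or IMN administered WT mice 5 or 8 a count of 1 (6.59%, 10.3% and 7.81%). Id4 was at 23.4 to 42.5 TPM in vehicle administered WT mice 1, 2, 4 and 5 and at 59.9 to 102 TPM in the other 4 mice of that group. In this comparison the median over 10 markers was -1.96 for cortical neurons (10 below 0) and 1.48 for striatal neurons (10 above 0). It was -0.08 for oligodendrocytes, 0.15 for microglia and 0.06 for endothelium. With the cortical or striatal marker mean in the fit, 2 and 3 members were at an unadjusted p under 0.05, against 6.17% and 6.08% of all genes.

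The third comparison, IMN against vehicle in Brd1+/- mice, does not involve the WT mice. Of the 39 genes 3 passed the nominal threshold, Dio2 and Hes5 with lower and F3 with higher levels under IMN, against 1.83% of the 23020 genes tested (0.869% higher and 0.964% lower). None was below an FDR of 5%, nor was any other gene. At an unadjusted p under 0.05 were 4 members, against 7.09% of all genes. The median difference over the members was 0.05, with 16 below 0, and over all genes 0.01, with 45.6% below 0. The 250 bases before the RefSeq start of the 3 genes (GRCm38.p6) are given here in the order of the genes, since these are the members that passed the threshold and their starts differ in composition. Capitals mark matches to 4 motifs searched on both strands: the cyclic AMP response element TGACGTCA, the TATA box TATAAA, the Notch effector (RBPJ) motif TGGGAA and the GC box GGGCGG. The regions are chr12:90739039-90739288 on the reverse strand for Dio2, chr4:154960673-154960922 on the forward strand for Hes5, and chr3:121723287-121723536 on the forward strand for F3.
Dio2: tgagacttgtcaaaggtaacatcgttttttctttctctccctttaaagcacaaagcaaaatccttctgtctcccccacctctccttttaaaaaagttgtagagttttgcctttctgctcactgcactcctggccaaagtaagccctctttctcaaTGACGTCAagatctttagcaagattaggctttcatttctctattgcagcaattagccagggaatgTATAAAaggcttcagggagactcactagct
Hes5: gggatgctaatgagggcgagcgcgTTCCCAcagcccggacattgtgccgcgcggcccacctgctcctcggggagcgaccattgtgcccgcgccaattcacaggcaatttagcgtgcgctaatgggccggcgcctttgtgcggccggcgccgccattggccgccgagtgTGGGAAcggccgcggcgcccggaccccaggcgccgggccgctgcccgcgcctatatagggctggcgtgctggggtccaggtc
F3: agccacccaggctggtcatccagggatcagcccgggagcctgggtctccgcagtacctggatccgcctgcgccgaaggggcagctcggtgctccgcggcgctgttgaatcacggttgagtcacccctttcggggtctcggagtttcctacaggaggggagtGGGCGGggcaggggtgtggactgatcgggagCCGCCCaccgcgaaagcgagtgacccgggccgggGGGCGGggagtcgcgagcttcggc

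The Dio2 window held the cyclic AMP response element 95 bases before the start and a TATA box 30 bases before it. A full cyclic AMP response element was found in 1.77% of 26994 genes with a promoter in the RefSeq table and in 1 of the 35 members that have one, and a TATA box in 14.3% of genes and in 8 of the 35 members. The RefSeq start of Dio2 used here lies upstream of the start of the gene in GENCODE. The Hes5 window held the RBPJ motif at 226 and 82 bases before the start, which 24.1% of genes and 10 of the 35 members have. The F3 window held the GC box at 89, 58 and 24 bases before the start, which 35.3% of genes and 20 of the 35 members have. G and C made up 41.6% of the Dio2 window, 71.6% of the Hes5 window and 70.0% of the F3 window. These matches describe letters in a window and no binding was measured.

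Dio2 encodes type 2 deiodinase, by which astrocytes turn the prohormone thyroxine into active thyroid hormone (ENSMUSG00000007682, chromosome 12, 90724552 to 90738438, reverse strand). The 7 vehicle administered Brd1+/- mice had 24.8, 33.1, 30.1, 24.9, 27.0, 27.2 and 24.1 TPM. The 8 IMN administered Brd1+/- mice had 20.2, 18.2, 15.1, 24.0, 20.2, 19.6, 21.6 and 22.9 TPM. The groups did not overlap, by a small gap between 23.99 and 24.13 TPM, which was so for 0.0738% of all genes in this direction and for 0.0261% in the other. Dio2 was lower under IMN by 0.42 ± 0.09 on the log2 scale (27.3 ± 3.26 and 20.2 ± 2.78 TPM; limma, adjusted p = 0.282; exact permutation test, p = 0.000311). The nominal call was kept in all 12 alternative settings, with differences of -0.47 to -0.38, and in all 15 fits without 1 mouse, with differences of -0.45 to -0.36 and adjusted p between 0.204 and 0.468. In WT mice the difference between IMN and vehicle was -0.09, with 18.6 to 34.4 TPM under vehicle and 17.4 to 30.2 TPM under IMN. The difference of the IMN effect between the genotypes was -0.33 ± 0.16 (limma, adjusted p = 0.305). It passed the nominal threshold after median-of-ratios scaling, at -0.47 ± 0.17 (limma, adjusted p = 0.292), and after quantile normalization, at -0.48 ± 0.17 (adjusted p = 0.283). In the other 10 settings it did not, with differences from -0.42 to -0.21, the latter with sample weights.

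Hes5, a target gene and effector of Notch signaling, was at 3.43, 10.5 and 15.0 TPM (lowest, median and highest) in vehicle administered Brd1+/- mice and at 2.91, 3.70 and 10.2 TPM in IMN administered Brd1+/- mice (ENSMUSG00000048001, chromosome 4, 154960923 to 154962371, forward strand). Each group held 1 mouse at the level of the other, vehicle mouse 1 at 3.43 TPM and IMN mouse 6 at 10.2 TPM. The difference was -0.99 ± 0.26 (10.3 ± 3.67 and 4.71 ± 2.45 TPM; limma, adjusted p = 0.404; exact permutation test, p = 0.00746). It kept its nominal call in all 12 settings and in all 15 fits without 1 mouse, with differences of -1.20 to -0.89 in the latter. In WT mice Hes5 was at 4.62, 8.37 and 11.4 TPM under vehicle and at 4.10, 6.07 and 11.0 TPM under IMN, and the difference of the effects between genotypes was -0.73 (95% confidence interval -1.47 to 0.0049).

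F3, the tissue factor gene, which starts the extrinsic coagulation cascade and is known in astrocytes (ENSMUSG00000028128, chromosome 3, 121723537 to 121735048, forward strand), was at 28.9, 31.3 and 33.6 TPM in vehicle administered and at 30.2, 36.8 and 40.9 TPM in IMN administered Brd1+/- mice. Of the 8 IMN administered mice, 6 lay above all 7 vehicle administered mice. The difference of 0.19 ± 0.07 (limma, adjusted p = 0.528; exact permutation test, p = 0.00824) kept its nominal call in 5 of 12 settings. Of the 15 fits without 1 mouse it kept the call only in the 3 without vehicle administered mouse 7 or IMN administered mice 1 or 6, with differences between 0.17 and 0.23 over all 15. Ndrg2, a stress-responsive astrocyte gene, was the fourth member at an unadjusted p under 0.05, with 331 ± 15.3 TPM under vehicle and 378 ± 42.1 TPM under IMN (0.18 ± 0.07, adjusted p = 0.613).

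Markers of other cell types differed in the same comparison. Of 10 striatal neuron markers all were below 0 in IMN against vehicle administered Brd1+/- mice, with a median of -0.19, 1 past the nominal threshold and 4 at an unadjusted p under 0.05, and their summed TPM ran from 8425 to 9819 under vehicle and from 6776 to 9749 under IMN. With their mean in the fit Dio2 was at -0.38 ± 0.11 and Hes5 at -1.24 ± 0.30, both past the nominal threshold, and F3 at 0.20 ± 0.08 was not (limma, adjusted p = 0.584, 0.483 and 0.714). None of 10 oligodendrocyte markers was at an unadjusted p under 0.05, but all 10 were above 0, with a median of 0.51, and their summed TPM ran from 1450 to 4339 under vehicle and from 1351 to 7995 under IMN. With their mean as a covariate, an alternative chosen after the values were seen, Dio2 at -0.47 ± 0.10 and Hes5 at -0.79 ± 0.26 still passed the nominal threshold, and F3 at 0.14 ± 0.06 and Ndrg2 at 0.11 ± 0.05 did not (limma, adjusted p = 0.208, 0.521, 0.647 and 0.699). Pla2g7, which encodes a secreted phospholipase that degrades platelet-activating factor, passed in that fit at -0.41 ± 0.12 (adjusted p = 0.454), and was at -0.28 ± 0.14 (adjusted p = 0.725) without the covariate. Ndrg2 passed with the cortical marker mean in the fit (0.19 ± 0.06, adjusted p = 0.444) and after quantile normalization (0.21 ± 0.06, adjusted p = 0.369). Of 10 endothelium markers 7 were below 0 (median -0.08) and 1 was lower past the nominal threshold, and of 10 microglia markers 7 were below 0 (median -0.04), with 2 at an unadjusted p under 0.05. Their part in the members' values was not tested.

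**Figure D3:**
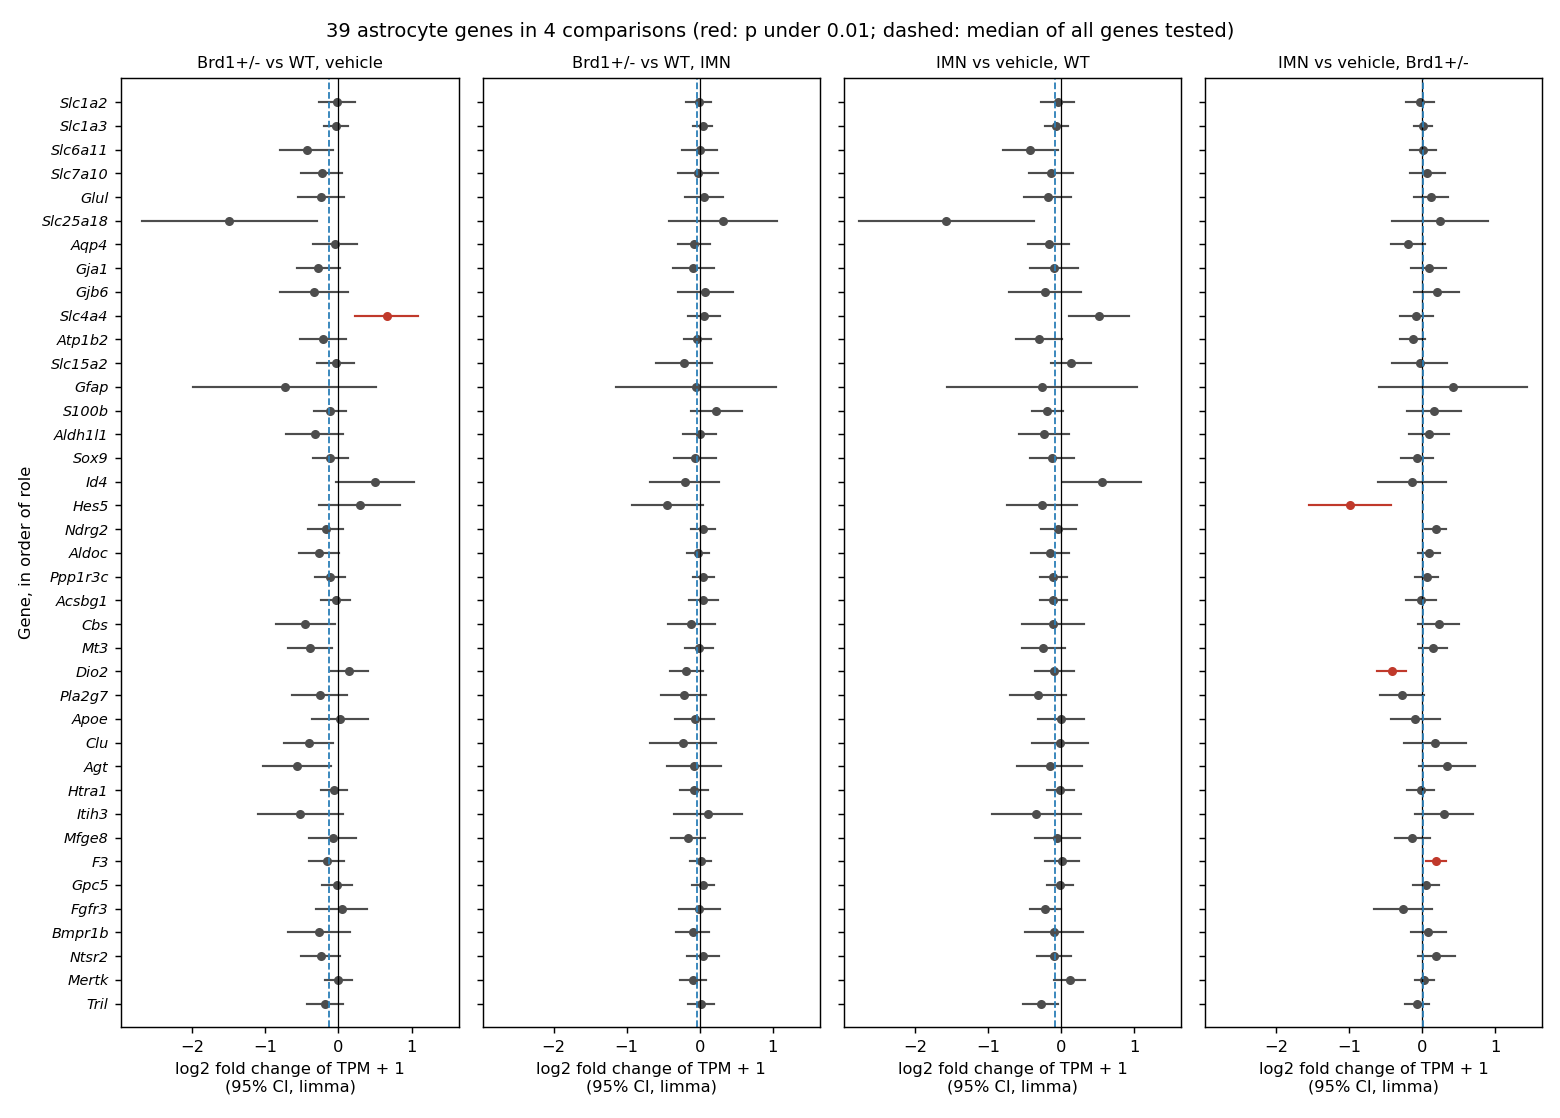
Log2 fold change of TPM + 1 with the 95% confidence interval (limma) of each of the 39 genes, in order of role, in 4 comparisons of 2 groups. Red marks p under 0.01 (Slc4a4 under vehicle; Dio2, Hes5 and F3 with IMN in Brd1+/- mice), the dashed line the median of all genes tested (-0.13, -0.03, -0.08 and 0.01).

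The fourth comparison asked whether Brd1+/- and WT mice differ under IMN. No member passed the nominal threshold in limma or in the exact permutation test, and none was at an unadjusted p under 0.05 in either, against 0.703% and 3.92% of the 23339 genes tested by limma (0.189% higher and 0.514% lower at the nominal threshold). None was below an FDR of 5%, against 0.00428% of all genes, and the groups overlapped for each, as was not so for 0.0129% of all genes (lower). The 3 members with the smallest p were Hes5 at -0.44 ± 0.23, Dio2 at -0.18 ± 0.11 and the phagocytosis bridging protein gene Mfge8 at -0.16 ± 0.11 (limma, adjusted p = 0.998 for each). Without IMN administered Brd1+/- mouse 6, the mouse highest in Hes5 in its group, Hes5 was at -0.59 and passed the nominal threshold. In that fit 0.808% of all genes passed it, and none was below an FDR of 5%. IMN administered WT mice 6 and 7 were also high in Hes5, at 11.0 and 10.9 TPM, against 4.10 to 6.29 TPM in the others of that group. The members' differences ran from -0.44 to 0.32 with a median of -0.02, and that of all genes was -0.03. Below 0 were 25 members, against 63.3% of all genes, and 17 after median-of-ratios scaling, which moved the median of all genes to 0.0012. Slc4a4 was at 44.3 to 71.1 TPM in WT and 48.5 to 70.7 TPM in Brd1+/- mice under IMN, and Slc25a18 at 1.13 to 10.3 and 2.06 to 12.6 TPM.

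The interaction, fitted over all 31 mice, tested whether the IMN effect differed between genotypes. No member passed the nominal threshold, against 3.74% of the 25394 genes tested (2.97% higher and 0.78% lower). Below 0 were 11 members, against 32.8% of all genes. At an unadjusted p under 0.05 were 5 members, against 16.2% of all genes. These were Slc25a18 (1.81 ± 0.68), Slc4a4 (-0.60 ± 0.23), Mt3 (0.39 ± 0.17), Slc6a11 (0.43 ± 0.21) and Dio2 (-0.33 ± 0.16). Without the 4 libraries 1 member was under 0.05, against 3.21% of all genes. With the cortical or striatal marker mean in the fit it was also 1, against 5.44% and 3.36%. The median over 10 markers was 1.95 for cortical neurons (9 above 0), -1.62 for striatal neurons (10 below 0) and 0.55 for oligodendrocytes (10 above 0). It was -0.23 for microglia (10 below 0) and -0.11 for endothelium (7 below 0). Leaving out a vehicle administered WT mouse gave a count past the nominal threshold of 3 without mouse 6 (9.28% of all genes), 2 without mouse 8 (10.2%) and 1 without mouse 3 (4.09%), leaving out WT IMN mice 5 or 8 gave 2 or 1 (6.62% and 4.98%), and leaving out vehicle administered Brd1+/- mice 1 or 6 or Brd1+/- IMN mouse 8 gave 1 each (2.5%, 3.71% and 3.43%).

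Of 40 other genes enriched in astrocytes, 4 passed the nominal threshold between the genotypes under vehicle, against 13.6% of all genes. Gli3, a transcription factor of hedgehog signaling, was higher in Brd1+/- mice (4.69 ± 2.20 TPM, n = 8, in WT and 8.58 ± 2.90 TPM, n = 7, in Brd1+/- mice; 0.79 ± 0.24, adjusted p = 0.0595). The nuclear factor I genes Nfix (-1.55 ± 0.45, adjusted p = 0.0558) and Nfib (-1.24 ± 0.39, adjusted p = 0.0629) and the PACAP receptor gene Adcyap1r1 (-0.57 ± 0.19, adjusted p = 0.0680) were lower. Nfix ran from 21.0 to 228 TPM in vehicle administered WT mice and from 15.3 to 49.0 TPM in Brd1+/- mice, and both nuclear factor I genes are also known in cortical neurons. The median of the 40 genes was -0.18. Without the 4 libraries 0 of 38 genes tested passed, against 0.934% of all genes, with Gli3 at 0.35 ± 0.22 and Nfix at -0.78 ± 0.42, and the median was -0.0078. After median-of-ratios scaling 4 genes passed as higher and 2 as lower, against 9.21% of all genes. In IMN against vehicle administered Brd1+/- mice, Chrdl1, a secreted regulator of synapse maturation, was lower at 2.96 ± 1.87 against 7.25 ± 2.93 TPM (-1.11 ± 0.27, adjusted p = 0.336), and it was the only 1 of the 39 tested there to pass the nominal threshold, against 1.83% of all genes. Between the genotypes under IMN and for IMN in WT mice 0 of the 40 passed it (0.703% and 6.95% of all genes), with 0 and 5 at an unadjusted p under 0.05 (3.92% and 23.1% of all genes), and without the 4 libraries the 5 were 2 of 39 (4.89%).

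Of 36 genes known to be induced in reactive astrocytes, 27 passed the filter on low TPM under vehicle, and 3 of these were lower in Brd1+/- mice and none higher, against 12.1% and 1.47% of all genes. These were S100a10 (25.1 ± 11.1 TPM in WT and 12.9 ± 2.36 TPM in Brd1+/- mice; -0.84 ± 0.21, adjusted p = 0.0556), the MHC class I gene H2-T23 (-1.26 ± 0.36, adjusted p = 0.0556) and the protease inhibitor gene Serpina3n (-1.11 ± 0.36, adjusted p = 0.0658). With IMN in Brd1+/- mice H2-T23 was higher at 6.60 ± 1.59 against 4.08 ± 1.29 TPM (0.61 ± 0.18, adjusted p = 0.426), where 1.83% of all genes passed the nominal threshold. The summed TPM of the 36 genes was 121 to 217 in vehicle administered WT mice and 112 to 180 in the other 3 groups. The median of the genes tested under vehicle was -0.05, with 13 above and 14 below 0, and it was 0.03 with median-of-ratios scaling. Without the 4 libraries 0 of 24 genes tested passed the nominal threshold (0.934% of all genes), with S100a10 at -0.40 ± 0.13 and H2-T23 at -0.80 ± 0.41. Between the genotypes under IMN 0 of 29 and for IMN in WT mice 0 of 30 genes passed it (0.703% and 6.95% of all genes), with 2 and 8 at an unadjusted p under 0.05 (3.92% and 23.1% of all genes), and without the 4 libraries the 8 were 0 of 26 (4.89%).

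The spread of the members between mice was then set beside the levels of other cell types in the same libraries. Over the 23 mice outside the vehicle administered WT group, with each group centered on its mean, the correlation of each member with the mean of the 10 oligodendrocyte, cortical and striatal neuron markers was computed, 117 relations in all. With oligodendrocyte markers 12 members passed an adjusted p of 0.05 (Pearson, permutation within groups), 10 of them positive, and the median r of the 39 members was 0.48, against 0.01 for 18599 genes above 0.1 TPM in all these mice. Glul, which oligodendrocytes are known to transcribe too, had r = 0.92 and rho = 0.93 (permutation test, p = 1e-05 for each, the smallest it can give; adjusted p = 0.00117), and r = 0.88 without the 2 mice farthest from the median of the markers. Within groups its r was 0.80 in vehicle administered Brd1+/- mice, 0.94 in both IMN groups and 0.64 in vehicle administered WT mice. The other positive relations were those of Ndrg2 (r = 0.84), Gjb6 (0.80), S100b (0.76), Gfap (0.75), F3 (0.74), Aldh1l1 (0.68), Atp1b2 (0.65), Aqp4 (0.64) and Slc1a3 (0.57). Of the 18599 genes, 0.737% had an r at least as high as Glul and 6.18% one at least as high as Slc1a3. The share of all genes past the adjusted threshold was not computed for any marker list.

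Gfap had rho = 0.77 with the oligodendrocyte markers beside its r of 0.75 (permutation test, p = 0.00015 and 0.0003; adjusted p = 0.00439 and 0.00585), and r = 0.68 without the 2 farthest mice. Within groups its r was 0.96 in IMN administered WT mice, 0.83 in IMN administered Brd1+/- mice, 0.01 in vehicle administered Brd1+/- mice and 0.73 in the 8 vehicle administered WT mice. Hes5 and Id4 ran against the oligodendrocyte markers, both with r = -0.60. An r as low was found in 1.71% and 1.80% of all genes, respectively. Hes5 had rho = -0.50 (permutation test, p = 0.00278 for r and 0.0189 for rho; adjusted p = 0.027 and 0.0786), with r = -0.88 and -0.85 in the WT and Brd1+/- IMN groups, 0.08 in vehicle administered Brd1+/- mice and -0.21 in vehicle administered WT mice. Without the 2 farthest mice its r was -0.46. By rho, Slc1a3, Id4 and Hes5 did not pass the adjusted threshold.

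With cortical neuron markers 5 members passed, Slc25a18, Gfap, Gjb6 and Aqp4 with positive and Id4 with negative r (Id4 not by rho, adjusted p = 0.0558, permutation test), and the median r of the members was 0.29, against 0.09 for all genes. An r at least as high was found in 3.48% of all genes for Slc25a18, 4.40% for Gfap, 5.16% for Gjb6 and 5.60% for Aqp4. For Id4, 1.53% of all genes had an r as low. Slc25a18 had r = 0.68 and rho = 0.65 over the 23 mice (permutation test, p = 0.00142 and 0.00218; adjusted p = 0.0208 and 0.0243), 0.52 without the 2 farthest mice, and 0.80, 0.92 and 0.24 in the vehicle administered Brd1+/-, IMN administered WT and IMN administered Brd1+/- groups. In the 8 vehicle administered WT mice it was 0.93. With striatal markers 2 passed, Slc25a18 (r = -0.65) and Slc4a4 (r = 0.56), and the median r of the members was -0.20, against -0.19 for all genes. Of all genes, 5.45% had an r as low as Slc25a18 and 1.94% one as high as Slc4a4. Slc4a4 did not pass by rho (0.49, permutation test, adjusted p = 0.0891), and its r was 0.33 without the 2 farthest mice. Its r was -0.48 in vehicle administered Brd1+/- mice, 0.78 in the WT and 0.75 in the Brd1+/- IMN group, and 0.94 in vehicle administered WT mice. All of these relations share libraries and the fixed TPM sum, and the part of the other cell types in the members' values was not tested beyond the covariates given above.

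**Figure D4:**
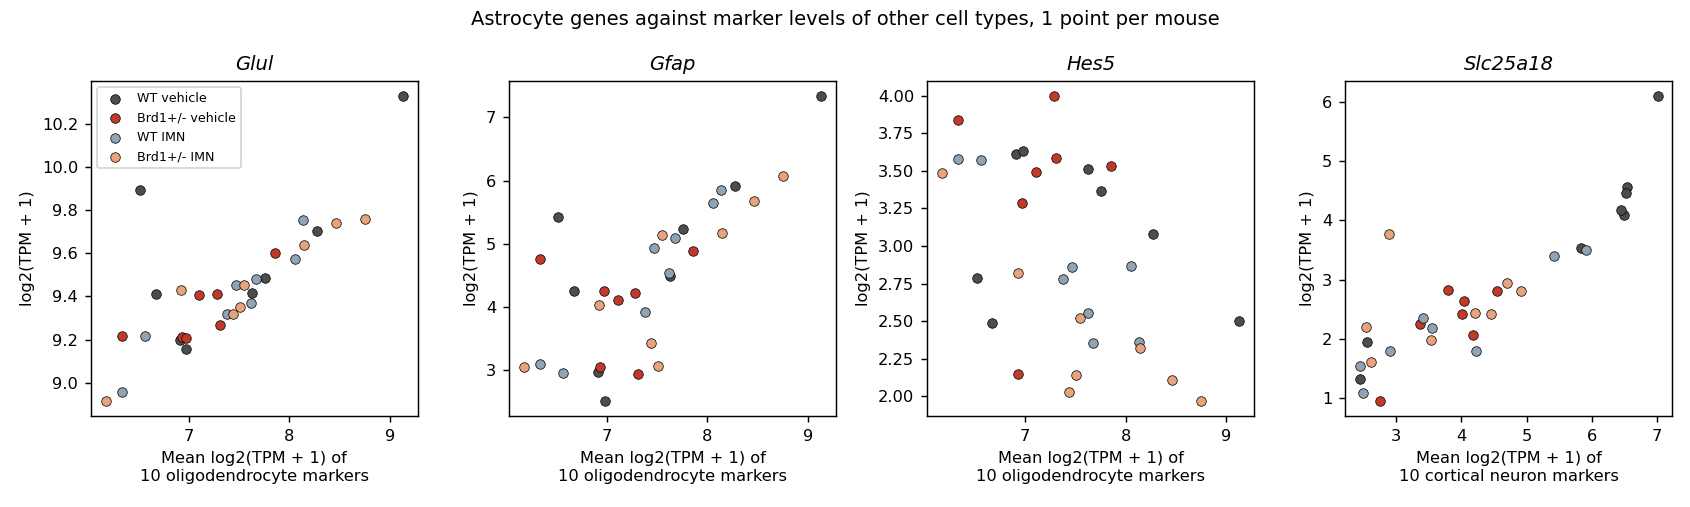
Log2(TPM + 1) of Glul, Gfap and Hes5 against the mean log2(TPM + 1) of 10 oligodendrocyte markers, and of Slc25a18 against that of 10 cortical neuron markers, with 1 point per mouse colored by group. Glul and Gfap run up and Hes5 down with the oligodendrocyte markers, and 6 of the 8 vehicle administered WT mice lie at the right end of the Slc25a18 plot. The highest IMN administered WT mouse, with a cortical marker mean of 5.92, lies there too.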

How the data were processed

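CPu punches of 31 mice gave single-end reads of 50 bases (BGISEQ-500). Per the study's methods and processing notes, the authors processed the reads with FastQC and Trimmomatic, aligned them to GRCm38 with HISAT2 2.1.0 and quantified them with StringTie 1.3.4 on the Ensembl annotation. Whether strand was used in counting was not stated in the sources used here. The authors deposited TPM of 52636 genes, which sum to between 999787 and 999918 per mouse with no further scaling between mice. Read depth cannot be recovered from TPM, and the methods state only a minimum per sample. The TPM table had 0 columns outside the 31 labelled mice, and 52403 identifiers had a symbol.

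Genes that exceeded 0.1 TPM in 7 or more of the mice of a fit were kept. Each pair of groups was then compared by moderated linear models (limma 3.58.1, R 4.3.3) of log2(TPM + 1), with a mean-variance trend. Log2 differences are on this scale, which understates changes of low genes. The interaction used all mice. Thresholds were a two-sided p under 0.01 (nominal) and a Benjamini-Hochberg FDR of 5% over all genes tested. The authors tested counts, and a count test was not used on TPM. Single members were also tested by exact permutation over mice. Nothing in the labels says that mice with the same number are related, and they were not paired. The fit was tested on simulated data. Promoters came from RefSeq on GRCm38.p6, and gene positions from GENCODE M21.

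Named with values were members past the nominal threshold, the 3 of smallest p where none passed, the 6 defining genes, up to 4 genes of each other astrocyte list per comparison, and further members with their levels. The members, lists and marker genes were chosen with earlier results of these data known. The other lists without the 4 libraries, the relations with marker means, the motifs and the oligodendrocyte covariate were chosen after levels were seen. The settings varied were the pseudocount (0.1), the filter (none, or a mean TPM of 1), the scaling (median-of-ratios, quantile), no trend, sample weights, a replicate block, all 4 groups in one fit, 3 marker covariates, and leaving out the 4 libraries or each mouse.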

Additional observations from a re-analysis of the deposited data

Results flagged for a closer look

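Of 156 combinations of member and group, 9 held a mouse far from the others of its group by Dixon's criterion on the log2 scale, where chance gives about 1 in 20. In vehicle administered WT mice these were Slc7a10 in mouse 2 at 40.3 TPM (highest), S100b in mouse 1 at 119 TPM (highest) and Slc15a2 in mouse 8 at 8.35 TPM (lowest). In vehicle administered Brd1+/- mice, mouse 1 was the lowest in Slc25a18 at 0.936 TPM, in Hes5 at 3.43 TPM and in Itih3 at 2.43 TPM, and mouse 3 was the lowest in Fgfr3 at 12.5 TPM. In IMN administered WT mice, mouse 6 was the lowest in Clu at 275 TPM and in Gpc5 at 14.8 TPM.

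The effect of IMN differed between the genotypes, by the interaction at a nominal p under 0.01, for 3 of 40 genes tested of the other astrocyte list, 2 of 30 of the reactive astrocyte list and no member, against 3.74% of all genes. On the log2 scale the difference of effects was 1.35 for H2-T23, -0.924 for the extracellular matrix gene Fbln5, -1.09 for Chrdl1, -0.878 for Gli3 and 1.56 for Nfix, each with an adjusted p of 0.261 (limma). Without the 4 vehicle administered WT libraries in which cortical exceeded striatal marker signal, 1 of 40 and 0 of 30 passed, against 0.544% of all genes, the 1 being Chrdl1 at -1.19.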

How the results depend on the processing

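The count of members past the nominal threshold between genotypes under vehicle was 1, and it was 5 with sample weights, 5 with all 4 groups in one fit, 2 with the replicate block (Slc25a18 and Agt, with Slc4a4 at 0.73 not past it), and 0 with the cortical, striatal or oligodendrocyte marker covariate or without the 4 libraries with more cortical than striatal marker signal. The share of all genes past it was 26.5%, 21.2% and 17.7% in the first 3 of these fits, against 13.6% as reported, and 0.934% to 9.18% in the others. It ran from 0 to 4 when each mouse was left out (8.89% to 22.4% of all genes). Under an FDR of 5% the counts were 0 as reported, 5 with sample weights, 5 in one fit, 2 with the replicate block (29.5%, 21.7% and 15.4% of all genes), and 0 to 5 without each mouse (0% to 23.8%). For IMN in WT mice the nominal count of 0 became 5 with sample weights and 4 in one fit (20.3% and 14.4% of all genes), and the FDR count 5 and 2 (20.6% and 10.2%); without each mouse they ran from 0 to 5 (3.88% to 15.3%) and from 0 to 1 (0.00428% to 10.5%). For the interaction the nominal count of 0 became 1 with median-of-ratios scaling, 2 with quantile normalization and 2 with sample weights (3.17%, 3.39% and 13.6% of all genes), and the FDR count 2 with sample weights (10.3%); without each mouse the nominal count ran from 0 to 3 (2.16% to 10.2%). Between genotypes under IMN it ran from 0 to 1 (0.55% to 1.09%), and for IMN in Brd1+/- mice from 2 to 4 (1.34% to 2.18%). The same-numbered mice had correlations of deviations from -0.45 to 0.49, which gives no pairing, and the replicate block otherwise changed only the count for IMN in Brd1+/- mice, to 2 without F3. Of all genes past the nominal threshold, 89.2% were lower between genotypes under vehicle, 73.2% between genotypes under IMN, 80.6% with IMN in WT mice and 20.8% in the interaction, and after median-of-ratios scaling 57.9%, 53.8%, 52.9% and 49.7%. There were 1678 values of single members under an alternative, over 54 pairs of member and comparison. A call could be lost or reversed only where the main fit had called the member. None was reversed and 31 were lost, all of Slc4a4 and F3. Slc4a4 kept its call in 8 of 13 settings and F3 in 5 of 12, and in 8 and 3 of 15 fits without 1 mouse. The call was gained in 59 values, and 19 others moved by more than the spread between mice. Between genotypes under vehicle, 14 members changed sign after median-of-ratios scaling, 17 without the 4 libraries and 20 with the striatal covariate. The causes were not tested.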

Other observations

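Mouse 6 of both IMN groups was low in many members. It held the lowest value of all 31 mice for 10 members among IMN administered Brd1+/- mice and for 7 among IMN administered WT mice, and the highest Hes5 of its group in both, at 10.2 and 11.0 TPM. The share of all genes with their lowest value in these 2 libraries was not computed. The mean log2 level of the oligodendrocyte markers in these 2 libraries was 6.17 and 6.34, the lowest of their groups. The labels give no batch for them, and no relation between mice of the same number is given.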
